A study of Homo sapiens with 8 samples.

Results

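Iron-sulfur cluster assembly genes were described in 4 human neuroblastoma cell lines, each measured once after ciclopirox and once after vehicle. The genes were chosen by symbol: 10 were listed, and a gene was represented by the probe set with the highest mean over all arrays among those annotated to that gene alone. Of the 10, 9 were measured with 15 probe sets (ISCU, NFS1, ISCA1, ISCA2, HSCB, GLRX5, FDX1, BOLA3 and LYRM4), out of 19774 genes measured in all. FDXR, which hands electrons to the ferredoxins, was not analysed here. All 9 passed the filter on low values, as did 14517 genes in all. Treated cells were kept for 48 h in 2.5 µM ciclopirox, a drug against fungi that binds iron, and control cells for 48 h in vehicle. The lines were SKNAS, labelled c-Myc, and NB1691, SKNBE2 and SKNAS/shHIF1a, labelled N-Myc. SKNAS/shHIF1a is a stable knockdown of HIF1A made in SKNAS and is therefore not independent of it. Whether it is 1 clone, and what construct the parent carries, is not given in the sources used here. All lines grew in serum-supplemented RPMI medium.

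Iron-sulfur clusters are cofactors of iron and sulfide that carry electrons in the respiratory chain and sit in enzymes such as aconitase, lipoate synthase and several DNA polymerases and helicases. In mitochondria the cysteine desulfurase NFS1, held by its partner LYRM4 (also known as ISD11), takes sulfur from cysteine and passes it to the scaffold ISCU, where iron and electrons from a ferredoxin complete a cluster. The cochaperone HSCB then helps to release the cluster to the glutaredoxin GLRX5, and ISCA1, ISCA2 and BOLA3 serve the later steps that deliver larger clusters to their clients.

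The values are log2 signals made with RMA, a method that corrects background, puts arrays on a common scale and summarises the probes of each set. Array medians lay between 3.47 and 3.52. Probe sets bind with different strength, so levels are compared between arrays and not between genes, and a summed signal of a marker list is set only against the same list on other arrays. HIF1A had signals of 11.09 with ciclopirox and 11.71 with vehicle in SKNAS/shHIF1a, against 11.94 and 12.25 in SKNAS, so the knockdown line was lower in both pairs. MYC and MYCN did not follow the labels in SKNAS/shHIF1a, which had MYC signals of 9.23 with ciclopirox and 9.86 with vehicle and MYCN signals of 5.65 and 5.41. In the same order MYC was 9.10 and 10.16 in SKNAS, and it lay between 2.66 and 3.28 in NB1691 and SKNBE2. MYCN was 3.36 and 2.77 in SKNAS, 11.77 and 12.05 in NB1691 and 12.53 and 12.48 in SKNBE2. The MYCN signals of SKNAS/shHIF1a thus lay above those of its parent and below those of NB1691 and SKNBE2. Of 10 noradrenergic neuroblastoma markers 9 were measured and passed the filter on low values, with summed signals of 11.99 to 14.53 with ciclopirox and 12.67 to 14.99 with vehicle, although TH lay between 3.15 and 3.59 in SKNAS and SKNAS/shHIF1a. All 8 markers of the mesenchymal state passed too, with summed signals of 12.66 to 14.35 with ciclopirox and 12.44 to 14.01 with vehicle. PRRX1 passed through SKNAS and SKNAS/shHIF1a (8.04 to 9.96) and lay between 2.74 and 3.09 in NB1691 and SKNBE2. YAP1 was also low in NB1691 and SKNBE2 (3.12 to 3.67), whereas THY1 was higher there than in the SKNAS-derived lines. Epithelial markers had summed signals of 5.67 to 10.94 with ciclopirox and 5.60 to 10.38 with vehicle, the high end set by KRT18 in SKNAS, and CDH1 stayed under 3.3 on every array. Lymphoid and myeloid markers had summed signals of 5.25 to 10.47 with ciclopirox and 5.41 to 11.54 with vehicle. Their high end was PTPRC in SKNAS (10.42 and 11.53), which was 6.34 with ciclopirox and 9.57 with vehicle in SKNAS/shHIF1a, while CD3E and CD14 stayed at or under 3.35 on every array. Endothelial markers had summed signals of 4.88 to 6.54 with ciclopirox and 4.93 to 5.73 with vehicle, and Schwann cell markers 3.92 to 4.23 and 3.83 to 4.58. The part of these markers in the results was not tested. Fewer cells of a kind and less RNA per cell cannot be told apart in such bulk samples.

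The first comparison set ciclopirox against vehicle. NFS1 was lower with ciclopirox in every line, by 0.59 to 0.86 log2 units, and the other 8 genes had mean changes between -0.21 and 0.04. None of the 9 passed the test over all genes (limma with cell line as a block, Benjamini-Hochberg adjusted p under 0.05), and neither did any other gene (0 of 14517). At an unadjusted p under 0.05, 1 of the 9 was lower, against 10.2% of all genes tested, and 0 were higher, against 7.67% (17.9% in either direction). The mean change was below 0 for 8 of the 9, against 52.2% of all genes, and the median change of the 9 was -0.09, against -0.01 for all genes. The median size of the mean change, sign aside, was 0.0882 for the 9 genes and 0.191 for all genes. The array values below come before any fold change, and an SE is that of the limma fit over 4 lines.

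**Figure D1:**
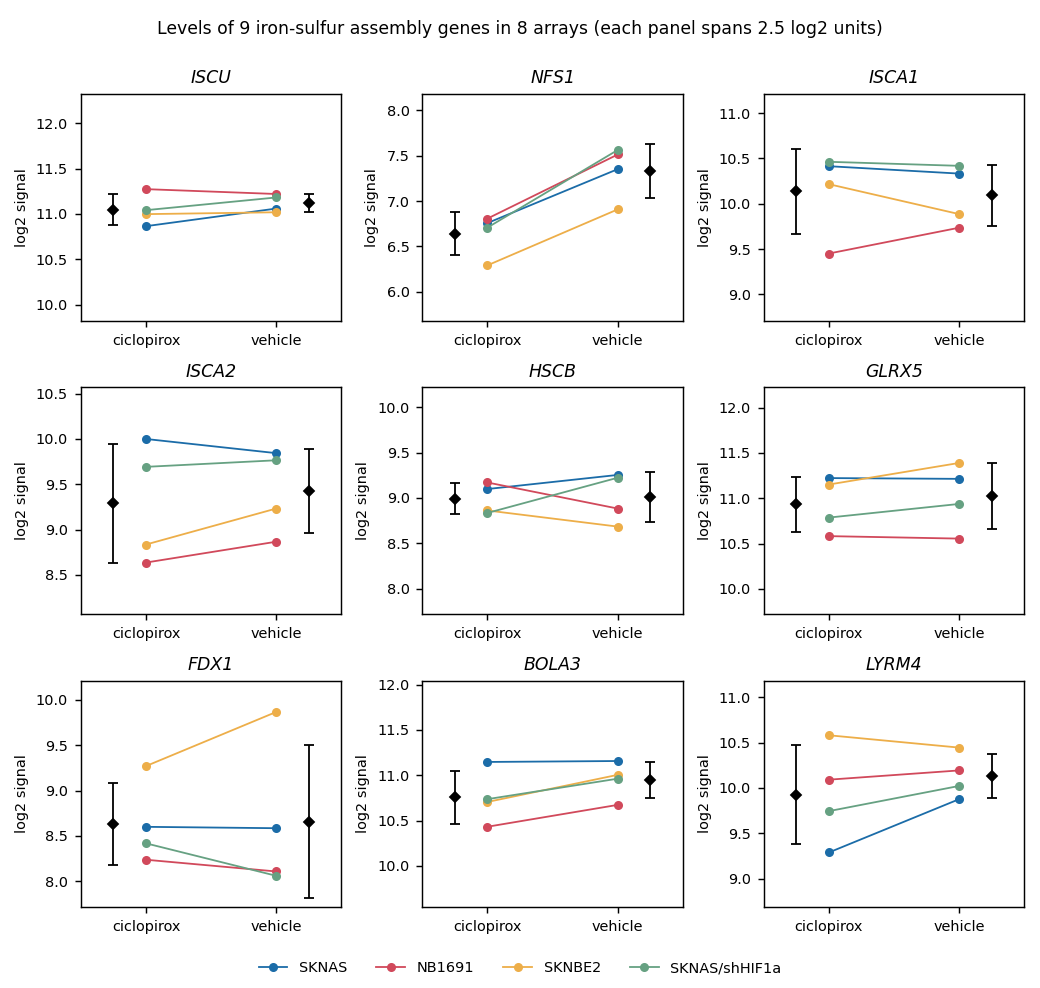
Log2 signal of 9 iron-sulfur cluster assembly genes (one panel each, vertical span equal in all panels) with ciclopirox on the left and vehicle on the right; lines join the arrays of 1 cell line, and black diamonds with bars give the mean and SD of 4 arrays. For NFS1 the 4 ciclopirox arrays sit between 6.29 and 6.81 and the 4 vehicle arrays between 6.91 and 7.56, whereas in the other panels the treatments overlap.

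NFS1, the sulfur donor, had log2 signals of 6.76 with ciclopirox against 7.35 with vehicle in SKNAS, 6.81 against 7.51 in NB1691, 6.29 against 6.91 in SKNBE2 and 6.71 against 7.56 in SKNAS/shHIF1a. Every ciclopirox array lay below every vehicle array, which was so for 1.47% of all genes tested, and 0 of the 9 had all ciclopirox arrays above all vehicle arrays, against 1.06%. The smallest gap was that between NB1691 with ciclopirox and SKNBE2 with vehicle. The mean was 6.64 ± 0.24 with ciclopirox and 7.33 ± 0.30 with vehicle (SD, n = 4 lines each). The mean change was -0.69 ± 0.12 (SE), a ratio of 0.618 on the linear scale, with limma adjusted p = 0.129 and a 95% interval of -0.98 to -0.41. By p-value NFS1 ranked 106 of 14517 genes. A decrease of at least 0.5 in all 4 lines was seen in 0.737% of all genes. The other NFS1 probe set differed less, with signals of 3.75 to 4.21 with ciclopirox and 3.78 to 4.19 with vehicle and a mean change of -0.07 ± 0.12 (limma adjusted p = 0.787 with each probe set tested alone). The signals of this other set lay little above the array medians of 3.47 to 3.52, so the size of its difference is uncertain. What sets the 2 probe sets apart was not tested.

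NFS1 and ROMO1, the gene of a small mitochondrial inner-membrane protein, start close together on opposite strands, and the stretch between them is shown because both genes were measured. RefSeq (GRCh38.p14) places this window of 300 bases around the NFS1 start at chr20:35699303-35699602 on the minus strand. Capitals mark the 54 bases from the first base of ROMO1 to that of NFS1, both included.
NFS1 promoter, 5′ to 3′: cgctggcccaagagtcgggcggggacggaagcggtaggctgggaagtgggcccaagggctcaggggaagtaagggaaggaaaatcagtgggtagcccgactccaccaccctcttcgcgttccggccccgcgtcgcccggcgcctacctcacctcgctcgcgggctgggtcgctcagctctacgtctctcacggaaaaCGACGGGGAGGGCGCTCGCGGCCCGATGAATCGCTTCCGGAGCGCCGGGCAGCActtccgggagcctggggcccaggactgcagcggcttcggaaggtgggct
ROMO1 had changes of -0.12 in SKNAS, -0.20 in NB1691, -0.11 in SKNBE2 and -0.38 in SKNAS/shHIF1a, each smaller than that of NFS1 in the same line. The mean change of ROMO1 was -0.20 ± 0.12 (SE, limma adjusted p = 0.399). The window was searched on both strands for CACGTG, the E-box that MYC and MAX bind, and for ACGTG and GCGTG, the core letters of sites bound by hypoxia-inducible factors. CACGTG always contains ACGTG. None of the 3 motifs was found in the NFS1 window. Over 35116 such windows of all genes 7.26% held CACGTG, 21.4% ACGTG and 36.5% GCGTG, and of the 9 genes 0, 2 and 6 held them in at least 1 window.

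LYRM4, the partner that stabilises NFS1, had signals of 9.29 with ciclopirox against 9.88 with vehicle in SKNAS, 10.09 against 10.19 in NB1691, 10.58 against 10.45 in SKNBE2 and 9.74 against 10.02 in SKNAS/shHIF1a. It was lower in 3 lines and higher in SKNBE2, and the treatments overlapped. The mean change was -0.21 ± 0.15 (SE, limma adjusted p = 0.507). Its other probe set also had the lowest change in SKNAS (-0.48) and the highest in SKNBE2 (0.66), with a mean of 0.07. LYRM4 was lower by 0.59 in SKNAS, as NFS1 was, and by less than NFS1 or not at all in the other lines. A difference between the changes of these genes was not tested.

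ISCU, the scaffold, was the steadiest of the 9 in level across lines. Its signals were 10.86 with ciclopirox against 11.06 with vehicle in SKNAS, 11.27 against 11.22 in NB1691, 11.00 against 11.02 in SKNBE2 and 11.04 against 11.18 in SKNAS/shHIF1a. The mean change was -0.08 ± 0.12 (SE, limma adjusted p = 0.767), with a 95% interval of -0.36 to 0.21, so a mean decrease as large as that of NFS1 lies outside the interval of ISCU. A microRNA induced by hypoxia, miR-210, is known to act on ISCU mRNA, and its mature form is shown because the host transcript was measured. The sequence comes from RefSeq (GRCh38.p14), and capitals mark the seed, bases 2 to 8.
hsa-miR-210-3p, 5′ to 3′: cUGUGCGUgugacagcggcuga
The microRNA itself was not measured. Its host transcript MIR210HG had signals of 7.00 with ciclopirox against 3.34 with vehicle in SKNAS, 3.32 against 3.22 in NB1691, 4.23 against 3.76 in SKNBE2 and 4.39 against 3.32 in SKNAS/shHIF1a. It was higher with ciclopirox in all 4 lines, by 3.65 in SKNAS and by 0.10 in NB1691, and the mean change of 1.32 ± 0.58 did not pass (SE, limma adjusted p = 0.299). The vehicle signals of MIR210HG in SKNAS, NB1691 and SKNAS/shHIF1a, and its signal with ciclopirox in NB1691, lay under the lowest array median of 3.47, so the sizes of these differences are uncertain, and detection of the transcript in NB1691 was not tested. In the same lines the changes of ISCU were -0.19 in SKNAS, 0.05 in NB1691, -0.02 in SKNBE2 and -0.14 in SKNAS/shHIF1a. These 4 lines, of which SKNAS and its derivative are related, are too few for a correlation.

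FDX1, a mitochondrial ferredoxin that carries electrons for steroid and lipoate synthesis, had signals of 8.60 with ciclopirox against 8.59 with vehicle in SKNAS, 8.24 against 8.11 in NB1691, 9.27 against 9.87 in SKNBE2 and 8.42 against 8.06 in SKNAS/shHIF1a. Its changes were the most uneven of the 9, from -0.60 in SKNBE2 to 0.36 in SKNAS/shHIF1a, and averaged -0.02 ± 0.18 (SE, limma adjusted p = 0.957). In SKNBE2 the other 2 FDX1 probe sets had changes of -0.12 and 0.04, smaller in size than the -0.60 of the probe set used.

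HSCB, the cochaperone, had signals of 9.10 with ciclopirox against 9.25 with vehicle in SKNAS, 9.17 against 8.88 in NB1691, 8.86 against 8.68 in SKNBE2 and 8.83 against 9.22 in SKNAS/shHIF1a. It was lower in SKNAS and its derivative and higher in the other lines, with a mean of -0.02 ± 0.15 (SE, limma adjusted p = 0.958). The test of this difference by line origin gave -0.50 ± 0.24 (SE, SKNAS-derived lines minus the others, limma adjusted p = 0.51), and HSCB did not pass it. By the maker's suffix (_x_at), some probes of the HSCB set can bind other transcripts. GLRX5, the glutaredoxin that receives clusters, had signals of 11.22 with ciclopirox against 11.21 with vehicle in SKNAS, 10.58 against 10.55 in NB1691, 11.15 against 11.39 in SKNBE2 and 10.79 against 10.94 in SKNAS/shHIF1a. Its changes stayed within 0.24 of 0 in every line and averaged -0.09 ± 0.12 (SE, limma adjusted p = 0.729).

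ISCA1, a carrier of the later steps, had signals of 10.41 with ciclopirox against 10.33 with vehicle in SKNAS, 9.45 against 9.74 in NB1691, 10.22 against 9.89 in SKNBE2 and 10.46 against 10.42 in SKNAS/shHIF1a. It was higher in 3 lines and lower in NB1691, where its other 2 probe sets had changes of 0.01 and 0.10, and the mean change was 0.04 ± 0.14 (SE, limma adjusted p = 0.897). ISCA2, its partner, had signals of 10.00 with ciclopirox against 9.84 with vehicle in SKNAS, 8.64 against 8.87 in NB1691, 8.84 against 9.23 in SKNBE2 and 9.69 against 9.76 in SKNAS/shHIF1a. It was higher in SKNAS and lower in the other 3 lines, with a mean change of -0.14 ± 0.14 (SE, limma adjusted p = 0.636).

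BOLA3, which works with GLRX5 and NFU1 in cluster delivery, had signals of 11.15 with ciclopirox against 11.16 with vehicle in SKNAS, 10.43 against 10.67 in NB1691, 10.71 against 11.00 in SKNBE2 and 10.74 against 10.96 in SKNAS/shHIF1a. Next to NFS1 it was the other gene lower in all 4 lines, which makes 2 of 9, against 16.0% of all genes. None was higher in all 4 lines (0 of 9, against 11.8%). In SKNAS the difference was only -0.01, and the mean change was -0.19 ± 0.12 (SE, limma adjusted p = 0.419). RefSeq lists pseudogenes named for ISCU, ISCA1, ISCA2, GLRX5, FDX1 and BOLA3, from 1 for ISCU to 7 for ISCA1, whose transcripts the probes of these genes may share.

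**Figure D2:**
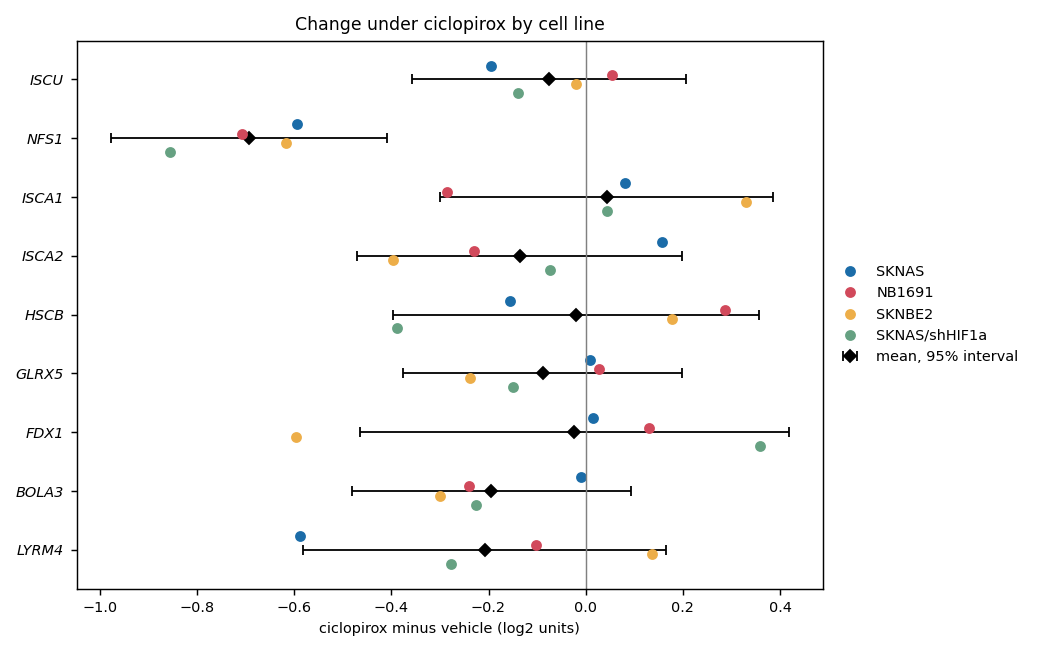
Difference in log2 signal, ciclopirox minus vehicle, for 9 genes (rows) in 4 cell lines (coloured points), with the mean and its 95% interval from limma (black). NFS1 has all 4 points between -0.86 and -0.59, and the intervals of the other 8 genes include 0.

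A line on its own has 1 array per treatment, so its differences are given untested. Of 36 differences (9 genes in 4 lines), 6 reached 0.5 log2 units in size and all 6 were decreases: NFS1 in every line, LYRM4 in SKNAS and FDX1 in SKNBE2. Decreases of this size thus numbered 2 of 9 in SKNAS, 1 in NB1691, 2 in SKNBE2 and 1 in SKNAS/shHIF1a, against 10.8%, 17.0%, 8.95% and 15.7% of all genes in the same order. Increases of that size numbered 0 of 9 in each line, against 10.6%, 12.9%, 10.3% and 13.6%. In the test of the response by line origin 0 of 9 passed in limma, against 0.0344% of all genes, and at an unadjusted p under 0.05 also 0 of 9, against 11.3%. This split sets SKNAS and SKNAS/shHIF1a against NB1691 and SKNBE2. For NFS1 that difference was -0.06 ± 0.24 (SE, limma adjusted p = 0.952), with mean changes of -0.73 in SKNAS and its derivative and -0.66 in NB1691 and SKNBE2.

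The cell lines differed in the levels of 6 of the 9 genes in at least 1 pair, against 57.5% of all genes tested. Lines were compared in pairs over both treatments (limma with treatment as a covariate, Benjamini-Hochberg adjusted over all genes for each pair, 2 arrays per line). The SE of a line difference ran from 0.163 for ISCU to 0.255 for FDX1. FDX1 was highest in SKNBE2, with line means of 9.57 there, 8.59 in SKNAS, 8.24 in SKNAS/shHIF1a and 8.17 in NB1691. SKNBE2 exceeded SKNAS by 0.98 (limma adjusted p = 0.0333; 0.59 and limma adjusted p = 0.15 without the SKNBE2 vehicle array, and 1.48 as the mean of probe sets), SKNAS/shHIF1a by 1.33 (limma adjusted p = 0.0119) and NB1691 by 1.40 (limma adjusted p = 0.0128), and the other 3 lines did not pass against each other. Both other FDX1 probe sets also had their highest signals in SKNBE2.

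ISCA2 was higher in the SKNAS-derived lines, at 9.92 in SKNAS and 9.73 in SKNAS/shHIF1a, than in SKNBE2 (9.03) and NB1691 (8.75). All 4 pairs across that divide passed, with NB1691 lower than SKNAS by 1.17 (limma adjusted p = 0.00579) and SKNBE2 lower than SKNAS/shHIF1a by 0.69 (limma adjusted p = 0.0402). Neither SKNAS with its derivative nor NB1691 with SKNBE2 passed. ISCA1 had the order SKNAS/shHIF1a (10.44), SKNAS (10.37), SKNBE2 (10.05) and NB1691 (9.59), and NB1691 was lower than the first by 0.85 (limma adjusted p = 0.0201) and than the second by 0.78 (limma adjusted p = 0.0258). No neighbours in the ISCA1 order passed against each other.

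LYRM4 ran the other way, at 10.51 in SKNBE2, 10.14 in NB1691, 9.88 in SKNAS/shHIF1a and 9.58 in SKNAS. Only its ends differed by the test, with SKNBE2 above SKNAS by 0.93 (limma adjusted p = 0.0227). Its other probe set was also lowest in SKNAS. The arrays of the SKNAS-derived lines did not overlap those of the other lines for 2 genes that were higher (ISCA1 and ISCA2, against 15.5% of all genes) and 1 that was lower (LYRM4, against 15.7%). With lines and not arrays as the units, 0 of 9 passed by origin in limma, against 3.68% of all genes, and ISCA2 was the 1 gene at an unadjusted p under 0.05, against 23.2% (difference 0.93 ± 0.22, SE, limma adjusted p = 0.122).

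GLRX5 was highest in SKNBE2 (11.27) and SKNAS (11.22), then SKNAS/shHIF1a (10.86) and NB1691 (10.57). NB1691 was lower than SKNBE2 by 0.70 (limma adjusted p = 0.0284) and lower than SKNAS by 0.65 (limma adjusted p = 0.026). BOLA3 was highest in SKNAS (11.15), with SKNBE2 at 10.86, SKNAS/shHIF1a at 10.85 and NB1691 at 10.55, and NB1691 was lower than SKNAS by 0.60 (limma adjusted p = 0.0337). NFS1 lay at 7.16 in NB1691, 7.13 in SKNAS/shHIF1a, 7.05 in SKNAS and 6.60 in SKNBE2, and no pair passed (smallest limma adjusted p = 0.0538). ISCU and HSCB passed in no pair, and their line means ranged over 0.28 and 0.40.

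**Figure D3:**
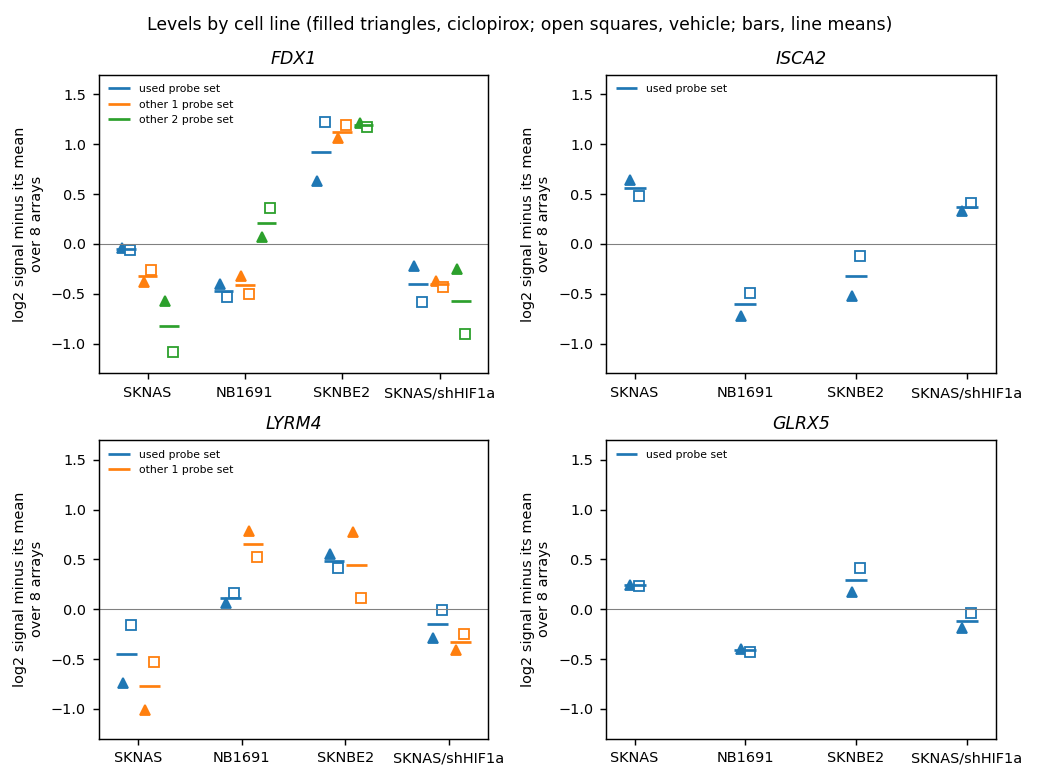
Log2 signal minus the mean of that probe set over 8 arrays, by cell line, for FDX1, ISCA2, LYRM4 and GLRX5; each colour is 1 probe set, triangles are ciclopirox arrays, open squares vehicle arrays and bars line means. FDX1 is highest in SKNBE2 with all 3 probe sets, and ISCA2 is higher in SKNAS and SKNAS/shHIF1a than in the other lines.

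In all, 13 line differences passed among 54 (9 genes in 6 pairs). The pairs share lines and are not independent. NB1691 minus SKNAS had 4 of 9 lower and 0 higher, against 18.8% and 18.9% of all genes (37.7% in all). SKNBE2 minus SKNAS had 1 lower and 2 higher, against 16.1% and 14.8% (30.9% in all). NB1691 minus SKNAS/shHIF1a had 2 lower and 0 higher, against 18.6% and 18.7% (37.2% in all). SKNBE2 minus SKNAS/shHIF1a had 1 lower and 1 higher, against 16.3% and 14.8% (31.1% in all). NB1691 minus SKNBE2 had 2 lower and 0 higher, against 12.2% and 12.9% (25.1% in all). SKNAS/shHIF1a minus SKNAS had 0 lower and 0 higher in limma, against 0.840% and 0.744% (1.58% in all). The smallest limma adjusted p of the 9 genes between knockdown and parent was 0.503. With 2 arrays per line these calls were not stable: each ended in at least 1 of the 8 fits that left out 1 array. The call for ISCA2 in NB1691 minus SKNAS ended in 1 fit, without the SKNAS ciclopirox array (difference -0.97). Those for GLRX5 in NB1691 minus SKNBE2 and for BOLA3 ended in all 8. Some of these fits left out an array of a line outside the pair, and the difference itself did not change. For BOLA3 it stayed at -0.60 without the SKNBE2 vehicle array. Such fits had fewer degrees of freedom and a new estimate of spread.

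Other genes of the pathway were taken from lists that were chosen with earlier results known, and none of their members passed over all genes (0 of 14517, smallest limma adjusted p 0.121). Counts below are at an unadjusted p under 0.05, to be read against 10.2% of all genes lower and 7.67% higher. Of 11 further mitochondrial assembly genes 1 was lower and 2 were higher, with a median change of -0.09. NUBPL, which supplies clusters to respiratory complex I, was lower by 0.76 in SKNAS, 1.03 in NB1691, 0.18 in SKNBE2 and 0.98 in SKNAS/shHIF1a (mean -0.73 ± 0.18, SE, limma adjusted p = 0.166). The mitochondrial iron importers SLC25A37 and SLC25A28 had mean changes of 1.46 ± 0.31 and 0.43 ± 0.18 and were higher in all 4 lines.

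Of 10 LYR motif proteins, the small family to which LYRM4 belongs, 3 were lower and 0 higher, with a median change of -0.29, against -0.01 for all genes. SDHAF3, an assembly factor of succinate dehydrogenase, was lower by 0.89 in SKNAS, 0.70 in NB1691, 0.80 in SKNBE2 and 1.13 in SKNAS/shHIF1a, and its treatments did not overlap (mean -0.88 ± 0.13, SE, limma adjusted p = 0.121). FMC1, an assembly factor of ATP synthase, had a mean change of -0.59 ± 0.15, and ETFRF1, a regulator of electron-transferring flavoprotein, one of -0.42 ± 0.20. By line the median of the family was -0.27 in SKNAS, -0.53 in NB1691, -0.12 in SKNBE2 and -0.29 in SKNAS/shHIF1a.

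Of 13 proteins listed as mitochondrial holders of iron-sulfur clusters 5 were lower and 0 higher, with a median change of -0.30. In all 4 lines 7 were lower and 2 higher, against 16.0% and 11.8% of all genes. CISD3, a NEET family protein inside mitochondria, was lower by 0.65 in SKNAS, 1.22 in NB1691, 0.79 in SKNBE2 and 0.59 in SKNAS/shHIF1a (mean -0.81 ± 0.15, SE, limma adjusted p = 0.14), and its treatments did not overlap. ETFDH, which feeds electrons into ubiquinone, had a mean change of -0.64 ± 0.16, and FECH, which inserts iron to make haem, one of -0.40 ± 0.13. LIAS, the lipoate synthase, stood on the other side with a mean of 0.34 ± 0.20, mostly from SKNBE2 (1.04). The other clients, cytosolic and nuclear, numbered 19, of which 1 was lower and 0 higher (median -0.14), and the largest mean changes were those of the DNA glycosylase NTHL1 (-0.68 ± 0.17), the pyrimidine-degrading DPYD (-0.65 ± 0.31) and the nuclease-helicase DNA2 (-0.37 ± 0.26).

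Of 10 genes of the cytosolic assembly system 1 was lower and 1 higher, with a median change of -0.10. The largest were BOLA2 at 0.36 ± 0.14, which has a near-identical copy, CIAO3 at -0.36 ± 0.12 and CIAO1 at -0.30 ± 0.13. Of 6 tested genes of the lipoylated enzyme pathway, LIAS among them, 0 were lower and 0 higher at that p in limma, with a median of 0.04. The largest mean changes after LIAS were those of DLST (0.29 ± 0.12) and DLAT (-0.28 ± 0.14). Of 4 tested genes of iron uptake, storage and export 2 were higher, the transferrin receptor TFRC by 0.95 ± 0.13 and the iron importer SLC11A2 by 0.78 ± 0.17. The iron exporter SLC40A1 was the 1 lower, by 0.60 ± 0.17, and none passed over all genes. TFRC had changes of 0.76 in SKNAS, 1.24 in NB1691, 0.78 in SKNBE2 and 1.02 in SKNAS/shHIF1a, beside the NFS1 changes of -0.59, -0.71, -0.62 and -0.86. That TFRC probe set reached 12.87 to 13.00 on the ciclopirox arrays, and 2 other TFRC probe sets had mean changes of 1.37 and 1.26, with 1.33 and 1.35 in SKNAS, while a further one had a mean of 0.11.

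**Figure D4:**
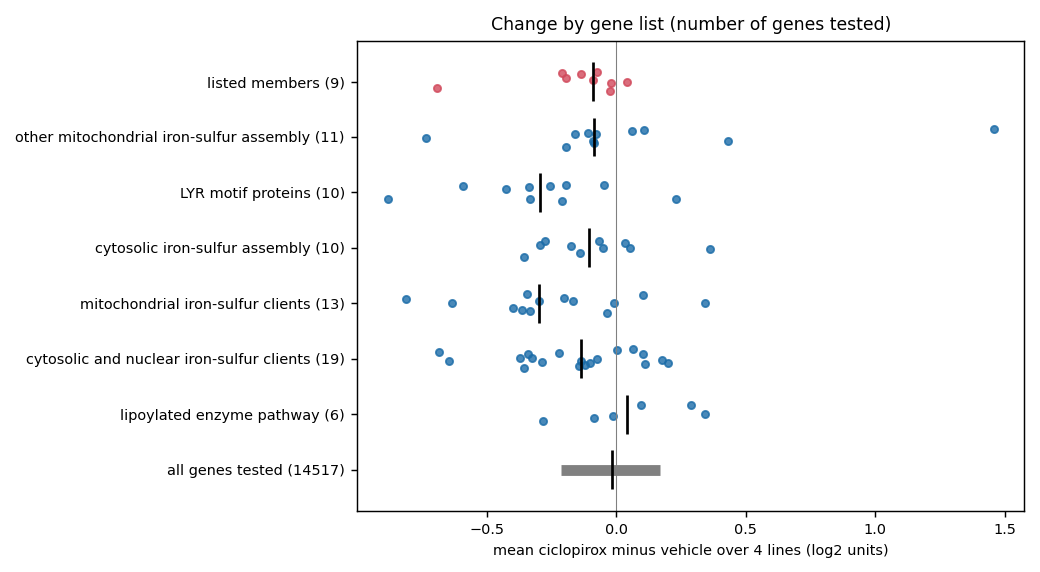
Mean ciclopirox minus vehicle difference over 4 lines, in log2 units, for each tested gene (points) of the 9 measured genes and of the pathway lists, with list medians as black bars; the grey bar spans the quartiles of all 14517 genes. The medians of LYR motif proteins and of mitochondrial clients sit at -0.29 and -0.30, and that of all genes at -0.01.

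The genes whose 4 changes lay closest to those of NFS1, by root mean square difference over the lines among 14508 other tested genes, were ALG6, a glucosyltransferase of N-glycan synthesis (0.0591), INTS9, an Integrator subunit (0.0595), PIGF, of glycosylphosphatidylinositol anchor synthesis (0.0618), ALDH1B1, a mitochondrial aldehyde dehydrogenase (0.0682), and DNMT3B, a DNA methyltransferase (0.081). Their mean changes ranged from -0.73 for ALG6 to -0.64 for INTS9. As for NFS1, the change furthest below 0 was that in SKNAS/shHIF1a in all 5 genes, which were chosen on these same 4 values.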

How the data were processed

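Total RNA from 4 cell lines was hybridised to 8 Affymetrix arrays, 1 per line and treatment, after labelling as biotinylated cRNA (per the labels' protocols). The deposited log2 values were made by the authors with RMA (no version given), per the submitters' processing notes. Their range and array medians are those of log2 values.

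Of 54715 probe sets, 102 were controls, 40914 carried 1 gene symbol in the platform annotation, 864 several and 12835 none. Of 19774 genes, those whose mean reached the 40th percentile over probe sets (log2 3.21) were tested, 14517 in number. Tests were made with limma 3.58.1 in R 4.3.3, with Benjamini-Hochberg adjustment over all genes tested, two-sided, at 0.05. The fit had a block for cell line, with residual degrees of freedom of 3 and prior ones of 2.98, because the arrays of a line share that line. Deviations of its 2 arrays from the treatment means had a Pearson r across genes of 0.898 in SKNAS, 0.867 in NB1691, 0.885 in SKNBE2 and 0.817 in SKNAS/shHIF1a. The smallest p of an exact sign-flip test with 4 lines is 0.125, and it was not used. The labels do not say whether cultures were separate. The p-values for ciclopirox therefore measure only the spread of its change between these lines, of which SKNAS and its derivative are related. Those by line origin measure only the spread between lines on the same side of that split. There SKNAS and its derivative are not independent units, and NB1691 and SKNBE2 are only pooled as the other lines. The p-values for line pairs measure only the spread between the arrays of a line after treatment is taken out. That spread holds differences between lines in the response to ciclopirox. Part of each of these spreads may be technical. The fits were tested on simulated data.

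The genes and lists were chosen with earlier results of these data known. The 9 measured genes are all named. From each pathway list up to 3 genes with the largest mean change in size are named, and likeness was ranked for the gene with the largest mean change. LIAS is in 2 lists, and ROMO1 and the other genes next to a listed gene on the opposite strand were chosen after values were seen. Alternatives were no block, leaving out lines or arrays, SKNAS averaged with its derivative, other filters, the mean of probe sets, each probe set alone, other scalings, an intensity trend, array weights and a threshold of 0.1. Leaving out arrays in the comparisons of lines, leaving out lines in those by origin, and the alternatives for the count lower in all lines were chosen after seeing the data.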

Additional observations from a re-analysis of the deposited data

How the results depend on the processing

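The number of genes past the test for ciclopirox stayed at 0 of 9 in limma under every alternative run, with 1 at an unadjusted p under 0.05 in each of the 14 for which that count was made. NFS1 kept a mean change between -0.73 and -0.64 without 1 line at a time, -0.38 as the mean of its probe sets, and an adjusted p of 0.0855 (array weights) to 1.00 (no cell line block, that is no replicate block) over all alternatives. Genes lower in all lines numbered 2, with 2 to 3 without 1 line at a time and 1 after quantile normalization. Mean changes near 0 turned in sign for HSCB (0.0644 with SKNAS and its derivative averaged, and -0.12 to 0.10 without 1 line), FDX1 (0.0676 as the mean of probe sets, 0.00872 with array weights, 0.23 for another of its probe sets, and -0.15 to 0.17 without 1 line), ISCA1 (-0.0530 to 0.152 without 1 line) and LYRM4 (0.0733 for its other probe set).

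Counts for line pairs moved more. One alternative used only the arrays of the 2 lines compared, which leaves fewer degrees of freedom. The counts then stayed at 3 for SKNBE2 minus SKNAS and at 0 for SKNAS/shHIF1a minus SKNAS. They fell to 1 for NB1691 minus SKNAS and for NB1691 minus SKNBE2. They fell to 0 for NB1691 minus SKNAS/shHIF1a and for SKNBE2 minus SKNAS/shHIF1a. Without 1 array at a time they ranged from 0 to 3 for NB1691 minus SKNAS and for SKNBE2 minus SKNAS, 0 to 2 for NB1691 minus SKNAS/shHIF1a and for SKNBE2 minus SKNAS/shHIF1a, and 0 to 1 for NB1691 minus SKNBE2. SKNBE2 minus SKNAS/shHIF1a had 4 at a threshold of 0.1, and NB1691 minus SKNBE2 had 4 with the mean of probe sets. No call turned in sign when 1 array was left out. The number of arrays limits the precision.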

Other observations

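Among the 9 measured genes, 6 had a gene on the opposite strand with a start within 1000 bases upstream in RefSeq, a check chosen after values were seen. NPC2, a lysosomal cholesterol carrier next to ISCA2, was higher with ciclopirox by 0.67 in SKNAS, 1.51 in NB1691, 0.66 in SKNBE2 and 0.78 in SKNAS/shHIF1a (mean 0.90 ± 0.18, SE, limma adjusted p = 0.153), where ISCA2 had 0.16, -0.23, -0.40 and -0.07. FARS2, the mitochondrial phenylalanine-tRNA synthetase next to LYRM4, had a mean change of -0.33 ± 0.13, with all 4 lines lower, as in 16.0% of all genes. Its change in NB1691 was only -0.01, and another FARS2 probe set had 0.07 there. The remaining neighbours were ROMO1 for NFS1, CHEK2 for HSCB (mean -0.13 ± 0.20), SNHG10 for GLRX5 (0.34 ± 0.18) and the transcript BOLA3-DT for BOLA3 (0.39 ± 0.26, from -0.17 in SKNAS/shHIF1a to 1.25 in NB1691), and none of the 6 passed over all genes.

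Targets of p53, the tumour suppressor that also acts on FDXR, had a median change of 0.52 over 18 tested genes, against -0.01 for all genes. At an unadjusted p under 0.05 in limma 6 were higher and 0 lower, against 7.67% and 10.2% of all genes, and none passed over all genes. Their median was 1.37 in NB1691, against 0.22 in SKNAS, 0.03 in SKNBE2 and 0.26 in SKNAS/shHIF1a. The largest mean changes were those of GDF15 (3.09 ± 0.56), CDKN1A (2.28 ± 0.34) and TNFRSF10B (1.67 ± 0.19), each higher in all 4 lines. Of the 18 genes 7 were higher in all 4 lines and 0 lower, against 11.8% and 16.0% of all genes. The part of p53 in these changes was not tested.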
